A study of Mus musculus with 2 samples.

Results

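Hedgehog pathway genes were followed across the cell types of the regenerating mouse digit tip. The 9 genes were the ligands Shh, Ihh and Dhh, the receptor Ptch1, the transducer Smo, the transcription factors Gli1, Gli2 and Gli3, and the inhibitor Hhip, picked by symbol from the 28001 features of the count matrices. They were named by pathway membership, with earlier results of these data known, and all 9 were found. In this pathway a secreted ligand binds Ptch1, which otherwise holds Smo inactive; released Smo then acts through the primary cilium on the Gli proteins. Ptch1, Gli1 and Hhip are themselves target genes of the pathway, so that their transcripts are widely used as readouts of a cell's response. In the growth plate Ihh is made by chondrocytes that are about to enlarge, in a feedback loop with parathyroid hormone-related protein (Pthlh) and its receptor Pth1r, and Dhh is the ligand known from Schwann cells of peripheral nerve.

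The data were droplet single-cell transcriptomes from 3' libraries, in which each molecule carries a unique molecular identifier (UMI). One library came from PdgfraCreERT;R26-LSL-TdT mice (called Pdgfra-Cre) and the other from Lmx1bCreERT2;R26-LSL-TdT mice (called Lmx1b-Cre), in which the Pdgfra or the Lmx1b gene drives a tamoxifen-dependent Cre and recombination at Rosa26 switches on tdTomato (Pdgfra marks most mesenchymal cells; Lmx1b is a dorsal limb and nail-region factor). Mice of both lines were 10 to 12 weeks old and received 3 mg of tamoxifen a day for 4 days. Digits were amputated 10 days after tamoxifen, and the tissue that had regrown beyond the cut was taken 14 days after amputation, so all cells came from amputated, tamoxifen-treated digits and no intact digit or other time point was in the series. How many mice were pooled in each library was not given in the sources used here.

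Deposited barcodes numbered 5991 in the Lmx1b-Cre library, with 66867027 UMIs, and 5032 in the Pdgfra-Cre library, with 49084751 UMIs; 2744 and 2309 were kept as cells, at a median of 17084 and 9774 UMIs. Each mouse line had 1 library, which leaves no replicates to test against. UMIs of a gene were summed over the cells of a group and given as counts per 1000000 UMIs (CPM) with exact Poisson 95% intervals in brackets, and shares of cells with at least 1 UMI carry exact (Clopper-Pearson) 95% intervals. Where a count was 0, the upper limit given is the level that 3 counts would make. These intervals reflect the counting of UMIs or cells alone; how far cells or animals vary is not in them. Cells were grouped by clustering that left out the 9 genes and further pathway genes, and the groups were named from marker genes, so each name stands for cells that resemble that type. Classes of at least 20 cells in a library are described. The mesenchymal class, bone-forming cells included, had 959 cells in the Lmx1b-Cre and 540 in the Pdgfra-Cre library, and the cartilage-like class 136 and 65.

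Several groups of barcodes stood apart, and the first 2 below enter no class. A Gfap and Aqp4 cluster of 63 barcodes was found in the Lmx1b-Cre library alone, and a cluster of 99 barcodes led by H19, Igf2 and Xist in the Pdgfra-Cre library alone. A cluster with Matn1 and Ucma, cartilage matrix genes, had 47 barcodes in the Pdgfra-Cre library against 1 in the other and was kept out of the cartilage-like class, as a class of its own among the other named cells. The libraries shared 10 barcodes, 1 of them among the kept cells. Of the cartilage-like class, the larger cluster, led by Scrg1, Matn3 and Col9a1, also had bone markers at 59710 CPM in the Lmx1b-Cre and 71992 CPM in the Pdgfra-Cre library, and its score on the osteoblast precursor markers was above that on the cartilage markers. Its cartilage markers stood at 24649 and 19164 CPM, against 1642 and 1202 CPM in the mesenchymal class.

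The stretches before 1 RefSeq start each of Ihh, Ptch1 and Hhip are shown because these were the members with higher transcript levels in osteoblast-like clusters below. RefSeq's table for GRCm38.p6, the build of the files (mm10), held start sites for 7 of the 9 genes. The table's start for Ptch1, at 63565735, lies inside the gene, whose outer edge is at 63573460, and that for Hhip, at 80058008, lies just inside the edge at 80058060, so both stretches hold annotated gene sequence. Each line is the 250 bases before the start, on the minus strand, read 5′ to 3′, with GC boxes (GGGCGG on either strand) in capitals.
Ihh, chr1:74951673-74951922: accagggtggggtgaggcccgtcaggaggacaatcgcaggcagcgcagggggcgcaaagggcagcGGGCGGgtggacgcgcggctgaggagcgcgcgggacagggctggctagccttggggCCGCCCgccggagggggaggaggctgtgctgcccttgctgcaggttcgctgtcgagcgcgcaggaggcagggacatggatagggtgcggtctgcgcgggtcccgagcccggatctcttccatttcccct
Ptch1, chr13:63565736-63565985: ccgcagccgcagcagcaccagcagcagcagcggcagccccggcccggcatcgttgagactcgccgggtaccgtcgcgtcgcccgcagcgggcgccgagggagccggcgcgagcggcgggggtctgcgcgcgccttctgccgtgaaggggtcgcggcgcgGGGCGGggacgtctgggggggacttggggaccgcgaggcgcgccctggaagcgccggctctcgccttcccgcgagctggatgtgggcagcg
Hhip, chr8:80058009-80058258: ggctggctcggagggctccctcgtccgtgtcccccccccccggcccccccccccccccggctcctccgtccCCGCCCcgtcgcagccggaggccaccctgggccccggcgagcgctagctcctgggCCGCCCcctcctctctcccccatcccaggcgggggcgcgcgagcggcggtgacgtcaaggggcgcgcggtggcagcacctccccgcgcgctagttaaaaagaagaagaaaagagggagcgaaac
The 3 stretches were rich in G and C, at 72.0% for Ihh, 78.4% for Ptch1 and 76.0% for Hhip, and held 24, 41 and 28 CpG dinucleotides. A GC box occurred 2 times upstream of Ihh, 1 time upstream of Ptch1 and 2 times upstream of Hhip, and 32.7% of all 32851 upstream stretches of that length held at least 1. The Gli motif GACCACCCA, searched on both strands in windows of 300 bases that also take in the first 50 transcribed bases, was in none of the 7 members' windows, and in 0.253% of all windows. Its looser form GACCNCCCA was likewise in none of the 7, against 0.977% of all windows. These letters are thus absent from these windows only, and distal sites were not searched.

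Among the ligands, Ihh was abundant and, within the named classes, confined largely to skeletal cells. Dhh was found in Schwann-like and endothelial cells, and Shh was at the limit of detection. Of 1063 Ihh UMIs in kept cells of the Pdgfra-Cre library, 74 lay in mesenchymal and 729 in other named cells. The rest lay in cells of no class, some of which are described at the end. In the Lmx1b-Cre library the same counts were 1412, 328 and 1059. Shh, the ligand of the embryonic limb's posterior margin, had 1 UMI in 1 of the 2744 cells of the Lmx1b-Cre library and 0 UMIs in the 2309 cells of the Pdgfra-Cre library. Over all barcodes, those not kept included, its count was 2 and 0. Its expression was therefore not detectable at this depth.

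**Figure D1:**
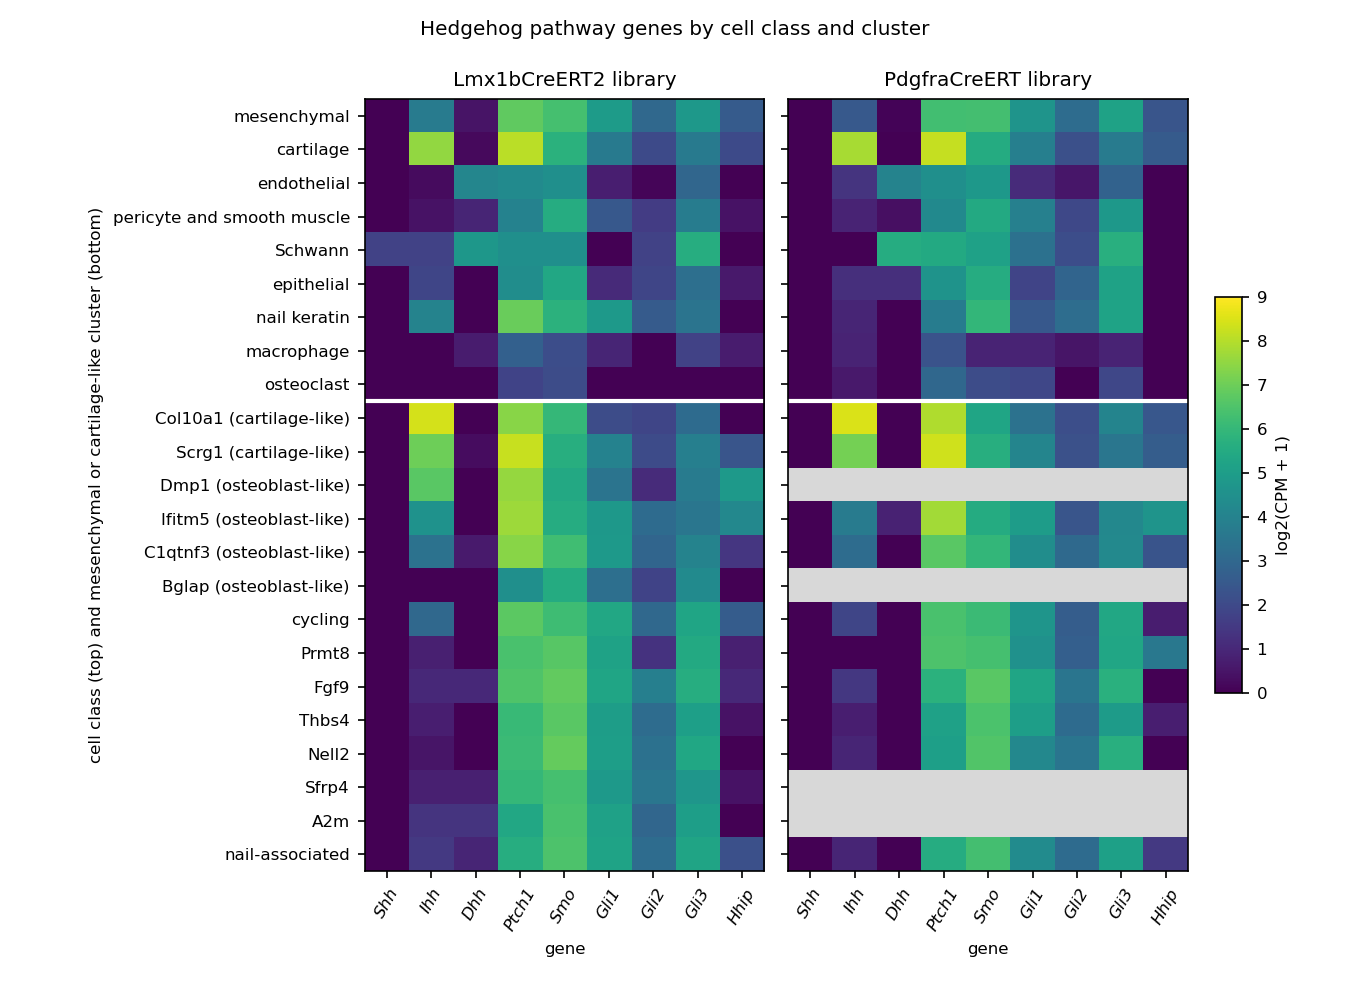
Level of each of the 9 genes (columns) in cell classes (upper part) and in mesenchymal and cartilage-like clusters named by a leading gene (lower part), as log2(CPM + 1), for the Lmx1bCreERT2 library (left) and the PdgfraCreERT library (right); grey marks clusters with under 20 cells. Ihh is brightest in the Col10a1 cluster, at 341 and 362 CPM, Ptch1 in the Scrg1 cluster, at 303 and 325 CPM, and Dhh in Schwann-like and endothelial cells.

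Ihh, the ligand of the growth plate, was highest in the cartilage-like cluster led by Col10a1, the collagen of enlarged (hypertrophic) chondrocytes. Its level there was 341 CPM (312 to 372) in the Lmx1b-Cre and 362 CPM (328 to 399) in the Pdgfra-Cre library, with a UMI in 32 of 34 and 19 of 20 cells and up to 59 and 70 UMIs in a single cell. The Scrg1 cluster followed at 127 CPM (116 to 138) and 139 CPM (123 to 157). Both libraries thus gave the same order within cartilage-like cells, with intervals of the libraries that overlap in each cluster. The Matn1 and Ucma cluster of the Pdgfra-Cre library also carried Ihh, at 198 CPM (135 to 279), with a UMI in 14 of 47 cells of low depth.

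Within the mesenchymal class Ihh was graded over the bone-forming clusters. The cluster led by Dmp1, Phex and Sost, genes of late osteoblasts and osteocytes, stood at 104 CPM (88.8 to 120) in the Lmx1b-Cre library, with a UMI in 34 of 56 cells (60.7%, 46.8 to 73.5), and had under 20 cells in the other library. The Ifitm5 cluster, osteoblast-like, was at 23.2 CPM (18.2 to 29.2) in the Lmx1b-Cre and 12.5 CPM (7.02 to 20.7) in the Pdgfra-Cre library. The C1qtnf3 and Adamts18 cluster, which resembles osteoblast precursors, was at 9.60 CPM (7.15 to 12.6) and 8.06 CPM (5.16 to 12.0). Outside these, cycling mesenchymal cells had 7.20 CPM (4.20 to 11.5) and 2.64 CPM (0.718 to 6.75), and every other mesenchymal cluster described had at most 1.79 CPM, from 3 UMIs or fewer. A further osteoblast-like cluster, led by Bglap (osteocalcin) and Car3 and found in the Lmx1b-Cre library alone, broke the pattern: it had Ihh in 0 of 45 cells, which allows up to 3.78 CPM. Ihh was therefore not a feature of all osteoblast-like cells, and several neighbours in the order did not differ beyond their intervals: the C1qtnf3 and the cycling cluster, in the Pdgfra-Cre library the Ifitm5 and C1qtnf3 clusters, and cycling cells and some clusters below them, such as the nail-associated one at 1.79 CPM (0.217 to 6.47) and 0.918 CPM (0.111 to 3.32).

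Macrophages were taken as a class that should lack these genes; free RNA itself was not measured. For Ihh 0 of 129 cells in the Lmx1b-Cre library (a count of 0 allows up to 2.33%) and 2 of 120 in the Pdgfra-Cre library (1.67%, 0.202 to 5.89) had a UMI, at median depths of 23762 and 19957 UMIs, against 81.6% (74.1 to 87.7) and 75.4% (63.1 to 85.2) of cartilage-like cells at 44763 and 46887 UMIs. With each cell thinned to 5000 UMIs the cartilage-like shares were 47.2% of 123 and 53.7% of 54 cells. Cells with fewer UMIs than that were left out of all thinned values. The nail-keratin class of the Lmx1b-Cre library had 15.1 CPM of Ihh (6.91 to 28.7), from 9 UMIs in 3 barcodes. Mesenchymal markers in that class summed to 68137 CPM, against 5053 CPM in the same class of the Pdgfra-Cre library, where Ihh was at 0.913 CPM (0.0231 to 5.09), and their part in the value was not tested.

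Dhh, the ligand of peripheral nerve, was found in Schwann-like cells and in vessels. Schwann-like cells had 26.4 CPM (13.2 to 47.2) in the Lmx1b-Cre library, with a UMI in 7 of 36 cells, and 47.1 CPM (35.5 to 61.1) in the Pdgfra-Cre library, with a UMI in 31 of 101. Endothelial cells had 16.4 CPM (14.0 to 19.1) and 15.2 CPM (11.7 to 19.3), in 18.2% and 15.2% of cells. The endothelial signal was uneven. The cluster led by Gkn3, Gja5 and Sema3g, genes of arterial endothelium, had 53.0 CPM (37.5 to 72.7) and 45.5 CPM (27.8 to 70.3), with a UMI in 24 of 44 and 9 of 28 cells. The Sele, Selp and Ackr1 cluster, of venule type, had 17.7 CPM (14.2 to 21.8) and 14.6 CPM (10.2 to 20.3), and the Kcne3, Btnl9 and Gpihbp1 cluster 5.40 CPM (3.02 to 8.91) and 10.0 CPM (4.80 to 18.4). By summed CPM the arterial-type cluster lay above both of the other non-cycling endothelial clusters in each library, with Poisson intervals that do not overlap. Shares of cells with a UMI separated it less clearly from the venule-type cluster. In the Pdgfra-Cre library they were 32.1% (15.9 to 52.4) against 16.9% (11.1 to 24.1), with intervals that overlap. With cells thinned as above, the intervals overlapped in both libraries. The thinned shares were 16.7% (6.97 to 31.4) against 8.31% (5.45 to 12.0) in the Lmx1b-Cre library. In the Pdgfra-Cre library they were 17.4% (4.95 to 38.8) against 7.63% (3.72 to 13.6). Macrophages, by comparison, had Dhh at 0.612 CPM (0.0741 to 2.21) and at 0 CPM, which allows up to 1.31 CPM, and mesenchymal cells at 0.374 CPM (0.179 to 0.688) and 0.0639 CPM (0.00162 to 0.356).

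**Figure D2:**
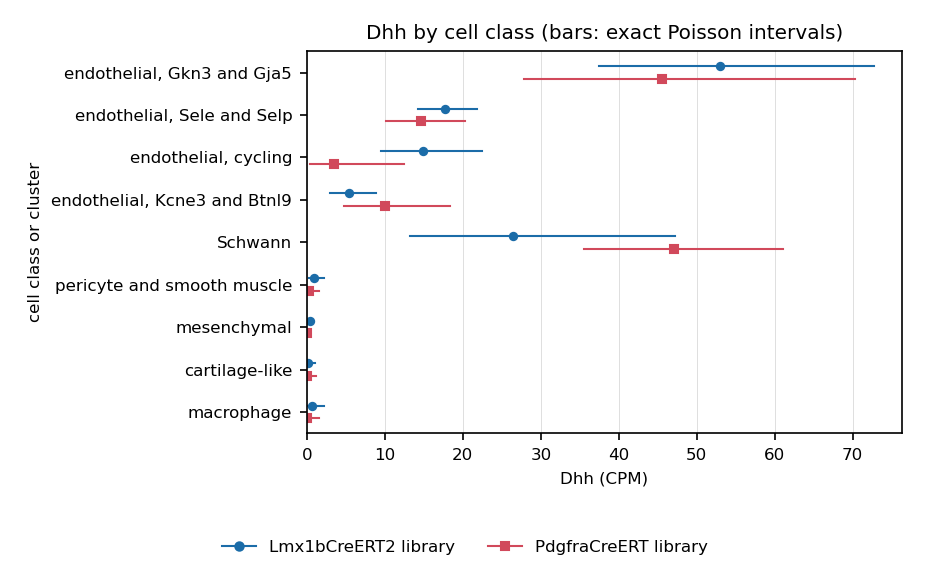
Level of Dhh (x axis, CPM) in the endothelial clusters, Schwann-like cells and other classes (y axis), with points for each library and bars for exact Poisson 95% intervals. The Gkn3 and Gja5 endothelial cluster (53.0 and 45.5 CPM) and Schwann-like cells (26.4 and 47.1 CPM) stand to the right, and mesenchymal, cartilage-like and macrophage cells lie near 0.

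Ptch1, the receptor and at the same time a target gene, was the most abundant of the 9 transcripts, with 4984 UMIs in the kept cells of the Lmx1b-Cre library and 2798 in the Pdgfra-Cre library. Its highest level was in the Scrg1 cartilage-like cluster, at 303 CPM (286 to 320) and 325 CPM (300 to 352). The Col10a1 cluster, highest for Ihh, had less Ptch1, at 167 CPM (147 to 189) and 245 CPM (217 to 276). Ihh and Ptch1 thus peaked in different clusters of the cartilage-like class, in both libraries. The Scrg1 cluster, as given above, also had bone markers and scored higher on osteoblast precursor than on cartilage markers. Its Ptch1 level can therefore not be assigned to cartilage alone.

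The clusters named as bone-forming carried the next levels of Ptch1. The Dmp1 cluster stood at 192 CPM (172 to 214) in the Lmx1b-Cre library, the Ifitm5 cluster at 203 CPM (187 to 219) and 212 CPM (186 to 239), and the C1qtnf3 cluster at 167 CPM (156 to 178) and 103 CPM (92.2 to 116). In the Lmx1b-Cre library the Dmp1 and Ifitm5 clusters did not differ beyond their intervals. The Bglap cluster again differed from these, at 21.4 CPM (12.5 to 34.3), below each of the other mesenchymal clusters of its library, with an interval that overlaps only that of the cluster led by A2m and Gdpd2. The non-skeletal clusters ranged from 41.4 to 106 CPM in the Lmx1b-Cre and from 32.5 to 87.6 CPM in the Pdgfra-Cre library, cycling cells being the highest of them in the first and Prmt8 and Mmp13 cells in the second. Over the whole mesenchymal class 68.7% and 58.0% of cells had a Ptch1 UMI. After thinning the shares were 33.5% of 892 and 22.6% of 491 cells.

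Outside the mesenchyme Ptch1 was present at a lower level. Endothelial cells had 19 CPM (16.4 to 21.9) and 21.5 CPM (17.4 to 26.3), pericytes and smooth muscle 14.8 CPM (11.7 to 18.4) and 18.4 CPM (14.1 to 23.4), and Schwann-like cells 21.6 CPM (9.88 to 41.0) and 43.7 CPM (32.6 to 57.3). Macrophages, at 5.81 CPM (3.5 to 9.07) and 3.93 CPM (1.79 to 7.45) with a UMI in 8.53% and 6.67% of cells, lay below all of these; what part of their UMIs is free RNA was not tested. The nail-keratin class of the Lmx1b-Cre library reached 121 CPM (94.6 to 152), but its 72 UMIs came from 10 of 51 barcodes, with up to 16 in a single one, and the mean of the cells' own CPM was 42.9. In the Pdgfra-Cre library that class had 12.8 CPM (6.99 to 21.5). As for Ihh above, mesenchymal markers were high in the former, and their part was not tested.

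**Figure D3:**
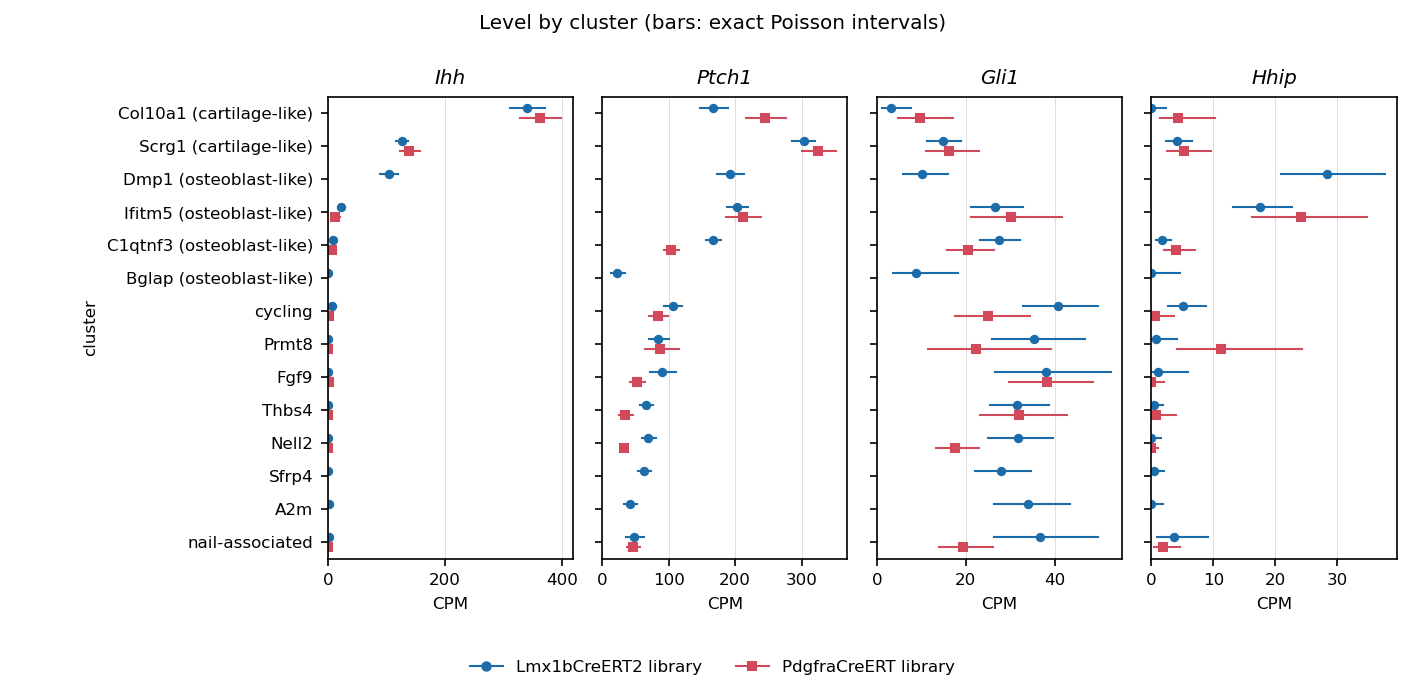
Levels of Ihh, Ptch1, Gli1 and Hhip (x axes, CPM, each panel with its own scale) in mesenchymal and cartilage-like clusters (y axis, by a leading gene), with points for each library and bars for exact Poisson 95% intervals. Ihh and Ptch1 are high in the upper, skeletal clusters, Hhip in the Dmp1 (28.4 CPM) and Ifitm5 (17.5 and 24.2 CPM) clusters, and Gli1 is lower in the cartilage-like clusters than in most others; clusters with under 20 cells in a library have no point.

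Smo, the membrane protein that Ptch1 holds in check, was spread more evenly and in another order. Mesenchymal cells had 79.8 CPM (76.4 to 83.2) and 77.8 CPM (73.5 to 82.3), in 79.4% and 76.3% of cells. Its highest clusters were the fibroblast-like ones led by Nell2 and Mest, at 117 CPM (104 to 132) and 92.2 CPM (82.0 to 103), and by Fgf9 and Lgr5, at 113 CPM (92.6 to 137) and 102 CPM (87.5 to 118). The Dmp1, Ifitm5, Bglap and Scrg1 clusters were at the low end, between 42.6 and 49.4 CPM where they could be described, while Col10a1 cells had 62.1 CPM (50.2 to 76.0) in the Lmx1b-Cre and 38.5 CPM (28.0 to 51.7) in the Pdgfra-Cre library. Pericytes and smooth muscle had 46.1 CPM (40.6 to 52.2) and 42.7 CPM (36.2 to 50.2), and endothelial cells 21.2 CPM (18.4 to 24.3) and 26.7 CPM (22.1 to 32.0), against 3.36 CPM (1.68 to 6.02) and 0.872 CPM (0.106 to 3.15) in macrophages. Every class outside the blood lineages that had at least 30 cells held Smo above the macrophage interval.

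Gli1, the activator whose own transcription is switched on by the pathway, was largely a mesenchymal transcript. The class had 29.4 CPM (27.4 to 31.5) and 24.2 CPM (21.8 to 26.8), in 45.4% and 41.3% of cells, while endothelial cells had 0.703 CPM (0.283 to 1.45) and 1.13 CPM (0.367 to 2.64), with intervals that overlap the 0.917 CPM (0.189 to 2.68) and 0.872 CPM (0.106 to 3.15) of macrophages. The nail-keratin class of the Lmx1b-Cre library, high in mesenchymal markers as given above, had 28.5 CPM from 17 UMIs. Among clusters the order of Ptch1 did not hold for Gli1. The Scrg1 cluster, highest in Ptch1, had 14.8 CPM (11.3 to 19) and 16.3 CPM (11.1 to 23.1) of Gli1, and the Col10a1 cluster, highest in Ihh, 3.30 CPM (1.07 to 7.71) and 9.63 CPM (4.81 to 17.2). The Dmp1 cluster had 10.1 CPM (5.86 to 16.1). Cycling cells of the Lmx1b-Cre library, at 40.7 CPM (33.0 to 49.7), and Fgf9 cells, at 38.0 CPM (26.6 to 52.6) and 38.4 CPM (29.7 to 48.7), were highest, and most of the remaining fibroblast-like clusters had intervals that overlapped theirs in the Lmx1b-Cre library. Pericytes and smooth muscle had 4.63 CPM (3.00 to 6.84) in the Lmx1b-Cre and 14.1 CPM (10.4 to 18.6) in the Pdgfra-Cre library. In the same class mesenchymal markers summed to 12043 and 18593 CPM, and their part in that difference was not tested.

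The number of Ptch1 UMIs per Gli1 UMI puts the 2 target genes on a scale that does not depend on the depth of a cell. It was 22.7 (17.7 to 29.5) and 21.4 (15.7 to 29.9) in cartilage-like cells, against 3.8 (3.51 to 4.11) and 3.19 (2.84 to 3.59) in the mesenchymal class. The Scrg1 cluster had 20.4 (15.8 to 26.9) and 20.0 (13.9 to 29.6), the Col10a1 cluster 50.6 (21.4 to 157), from 5 Gli1 UMIs, and 25.5 (14.0 to 51.6), and the Dmp1 cluster 19.1 (11.8 to 33.2) in the Lmx1b-Cre library. Ifitm5 cells lay between, at 7.60 (6.04 to 9.65) and 7.03 (4.94 to 10.3), as did C1qtnf3 cells, at 6.08 (5.09 to 7.29) and 5.05 (3.83 to 6.76). Every other mesenchymal cluster described had between 1.09 and 3.92. The clusters with a high ratio had more Ptch1 than the others and, for cartilage-like and Dmp1 cells, also less Gli1 than most of them.

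**Figure D4:**
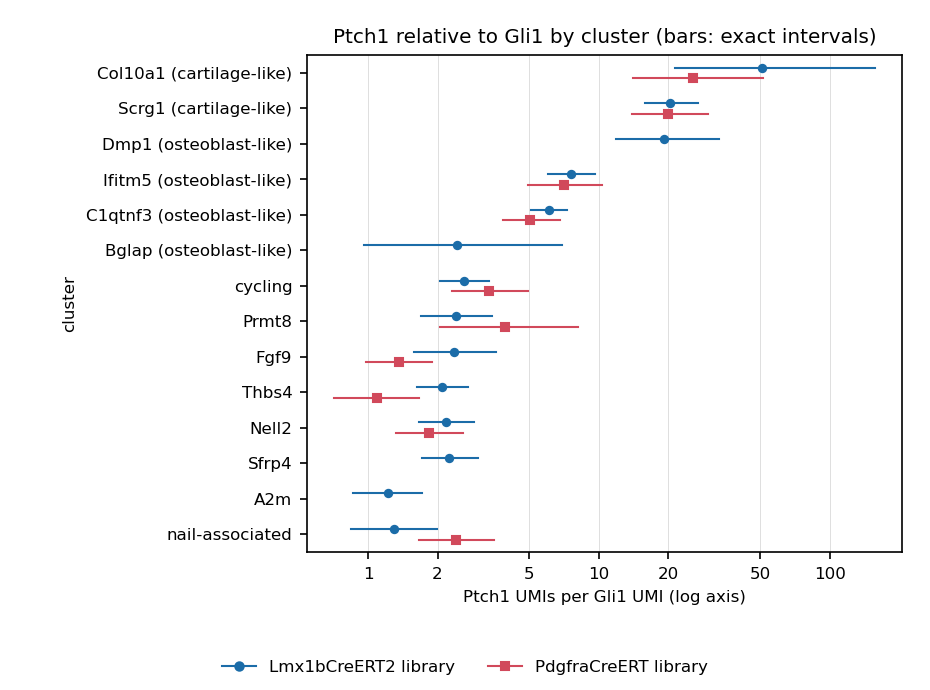
Ptch1 UMIs per Gli1 UMI (x axis, log scale) in mesenchymal and cartilage-like clusters (y axis), with points for each library and bars for exact 95% intervals of the ratio. Values fall from 50.6 and 25.5 in Col10a1 cells and 20.4 and 20.0 in Scrg1 cells through 7.60 and 7.03 in Ifitm5 cells to between 1.09 and 3.92 in the other clusters below the C1qtnf3 cells.

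Gli2 and Gli3, which carry out the response and, for Gli3 above all, repress targets when no ligand is present, were also measured. Gli2 was sparse, at 7.22 CPM (6.24 to 8.31) and 7.98 CPM (6.64 to 9.51) in mesenchymal cells and 3.02 CPM (1.76 to 4.84) and 3.61 CPM (1.80 to 6.46) in cartilage-like cells. Endothelial cells and macrophages had at most 2 UMIs of it in a library. Gli3 stood at 26.6 CPM (24.6 to 28.6) and 35.0 CPM (32.1 to 38.1) in mesenchymal cells, and its order over clusters was unlike that of Ptch1. Fgf9 cells had 47.5 CPM (34.7 to 63.6) and 51.0 CPM (40.9 to 62.7) and Nell2 cells 39.9 CPM (32.4 to 48.6) and 50.7 CPM (43.3 to 59.1), whereas Ifitm5 cells had 10.5 CPM (7.22 to 14.7) and 17.6 CPM (10.9 to 26.8) and Scrg1 cells 13.6 CPM (10.3 to 17.7) and 10.5 CPM (6.42 to 16.2). Schwann-like cells, which also held Dhh, had Gli3 at 48.0 CPM (29.3 to 74.2) and 50.4 CPM (38.5 to 64.9), close to the highest mesenchymal clusters, with Gli1 at 0 CPM, which allows up to 7.20 CPM, and 9.24 CPM (4.61 to 16.5). The macrophage level of Gli3 was 2.45 CPM (1.06 to 4.82) and 0.872 CPM (0.106 to 3.15).

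Hhip, a membrane protein that binds and sequesters ligand, was rare and narrowly placed. It had 157 UMIs in 78 cells of the Lmx1b-Cre library and 87 in 43 cells of the Pdgfra-Cre library. The Dmp1 cluster had 28.4 CPM (20.9 to 37.7), with a UMI in 18 of 56 cells, and the Ifitm5 cluster 17.5 CPM (13.2 to 22.7) and 24.2 CPM (16.2 to 34.8), with a UMI in 26 of 100 and 10 of 29 cells. C1qtnf3 cells, which resemble osteoblast precursors, had 1.69 CPM (0.774 to 3.21) and 4.03 CPM (2.08 to 7.04), below the Ifitm5 cells in each library. Cartilage-like cells had 3.02 CPM (1.76 to 4.84) and 4.93 CPM (2.76 to 8.12). The Bglap cluster had Hhip in 0 of 45 cells, which allows up to 3.78 CPM. In endothelial cells it was in 0 of 605 and 0 of 283, which allows up to 0.301 and 0.679 CPM. A value of 11.2 CPM (4.10 to 24.3) in Prmt8 cells of the Pdgfra-Cre library rested on 6 UMIs, 5 of them in 1 cell.

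For comparisons between groups, a gene was called where both sides together had at least 20 UMIs, the fold of the summed CPM was at least 2 either way, and its exact interval did not hold 1. Mesenchymal cells were first set against all other named cells of the same library. In the Lmx1b-Cre library 7 of the 8 measured genes were called, 5 higher and 2 lower, where 29.0% of 14978 genes were called, and in the Pdgfra-Cre library likewise 7 of 8, 5 higher and 2 lower, against 27.7% of 14193. The higher genes were Smo, Gli1, Gli2, Gli3 and Hhip in both. Gli1 was 6.93-fold higher (5.72 to 8.45) in the Lmx1b-Cre and 3.59-fold (2.93 to 4.42) in the Pdgfra-Cre library, Hhip 5.91-fold (3.81 to 9.56) and 4.71-fold (2.73 to 8.56), and Smo 2.56-fold (2.36 to 2.77) and 2.47-fold (2.24 to 2.73). The median log2 difference of the measured members was 1.40 and 1.19, against -0.18 and -0.20 over all genes tested.

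The lower genes were the ligands. Ihh, at 12.3 against 36.8 CPM, was 3.00-fold lower (2.65 to 3.41) in mesenchymal cells of the Lmx1b-Cre library and 8.12-fold lower (6.39 to 10.5) in those of the Pdgfra-Cre library, at 4.73 against 38.4 CPM. Without cartilage-like cells among the others, Ihh was 13.5-fold and 4.14-fold higher in mesenchymal cells and Ptch1, which was not called before at 1.66-fold and 1.22-fold, was 6.01-fold and 4.26-fold higher. Dhh was 16.9-fold lower (9.0 to 35.9) in the Lmx1b-Cre library, and its ratio in the Pdgfra-Cre library, 1 UMI against 125, was 103-fold lower (18.2 to 4103). When each cell was gated on its own markers in place of clusters, Smo and Gli3 in the Pdgfra-Cre library were at 1.94-fold and 1.71-fold and Gli1 in the Lmx1b-Cre library at 3.29-fold. Under the stricter cell filter (1000 genes, 5% mitochondrial UMIs), in which the Scrg1 cells were counted as mesenchyme, Ptch1 was 3.28-fold and 2.95-fold higher, and the Ihh fold in the Pdgfra-Cre library was 0.796.

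Cartilage-like cells were then set against mesenchymal cells, a comparison added after earlier values were known. In the Lmx1b-Cre library 5 of 7 measured genes were called, 2 higher and 3 lower, against 32.3% of all genes, and in the Pdgfra-Cre library 4 of 7, 2 higher and 2 lower, against 28.4%. Ihh was 15-fold (13.3 to 17.1) and 47.2-fold (37.1 to 60.8) higher and Ptch1 2.39-fold (2.24 to 2.54) and 3.82-fold (3.5 to 4.17). Gli2 was 2.39-fold (1.45 to 4.19) and 2.21-fold (1.19 to 4.54) lower and Gli3 2.20-fold (1.71 to 2.86) and 2.80-fold (2.02 to 4.01) lower. Gli1 was 2.51-fold lower (1.95 to 3.27) in the Lmx1b-Cre library, and in the Pdgfra-Cre library its ratio of 1.75-fold (1.27 to 2.48) did not reach the fold required. So the ligand and the receptor were higher, and the Gli genes lower or not called, in this class taken as a whole. Within it Ihh and Ptch1 peaked in different clusters, as given above. With the stricter filter of 1000 genes and 5% mitochondrial UMIs the Scrg1 cells took the osteoblast precursor name and joined the mesenchyme, and the Ptch1 fold in the Lmx1b-Cre library was then 1.28. Counting CPM without collagen and bone matrix genes left 3 of the 5 calls in the Lmx1b-Cre library. Taking a wider filter, or gating single cells, gave an Ihh fold of 28.0 or 24.6 in the Pdgfra-Cre library.

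Osteoblast-like clusters (Dmp1, Ifitm5, C1qtnf3 and Bglap together, 353 and 119 cells) differed from the other mesenchymal clusters in the same 4 genes in each library. Of 7 measured genes 3 were higher and 1 was lower in both, where 26.6% of all genes were called in the Lmx1b-Cre and 21.1% in the Pdgfra-Cre library. Ihh was at 27.3 against 1.84 CPM, 14.9-fold higher (10.1 to 22.6), and at 13.4 against 1.17 CPM, 11.5-fold higher (6.24 to 22.8). Hhip was at 10.2 against 1.27 CPM, 8.08-fold higher (4.99 to 13.7), and at 11.9 against 1.08 CPM, 11-fold higher (5.82 to 22.6). Ptch1 was at 171 against 70.7 CPM, 2.41-fold higher (2.24 to 2.60), and at 148 against 48.6 CPM, 3.04-fold higher (2.71 to 3.41). Gli3 was 2.57-fold (2.14 to 3.09) and 2.43-fold (1.91 to 3.12) lower. Gli1 was not called, at 23.2 against 33.7 CPM and 22.7 against 24.8 CPM. The size of the Ihh fold depended on how cells were taken: it was 22.8 and 3.23 with the stricter cell filter, and 27.1 in the Pdgfra-Cre library as a ratio of means over cells, and that of Hhip in the Lmx1b-Cre library was 4.51 with the stricter filter.

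The nail-associated cluster, led by Sfrp2, Cyp2f2 and Rspo4, was set against all other mesenchymal clusters, osteoblast-like ones included. Its Ihh and Ptch1 levels lay within the range of the other non-skeletal clusters. Of 7 measured genes 0 were higher and 2 lower in the Lmx1b-Cre library, against 18.3% of all genes called, and 0 were higher and 1 lower in the Pdgfra-Cre library, against 19.7%. Ihh, at 2 UMIs in each library, gave a ratio of 7.11-fold lower (1.95 to 58.9) and 5.81-fold lower (1.55 to 48.9). Ptch1 was 2.41-fold lower (1.84 to 3.23) in the Lmx1b-Cre library, at 47.4 against 114 CPM, and 1.77-fold lower (1.45 to 2.20) and not called in the Pdgfra-Cre library, at 46.4 against 82.3 CPM. Gli1 there was 36.7 CPM (26.3 to 49.8) and 19.3 CPM (13.9 to 26.1), neither called. With a ratio of means over cells 1 gene was called in the Lmx1b-Cre and 2 in the Pdgfra-Cre library.

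Between the libraries, mesenchymal cells differed in 1 of 7 measured genes, against 5.18% of 13620 genes, and this compares 2 libraries and not 2 mouse lines. Ihh was 2.60-fold lower (2.01 to 3.39) in the Pdgfra-Cre library, at 4.73 against 12.3 CPM. The other 6 had folds from 0.692 (Ptch1, 0.647 to 0.740) to 1.32 (Gli3, 1.18 to 1.48) and none was called. Osteoblast-like clusters, the main mesenchymal source of Ihh, gave 353 of 959 mesenchymal cells in the Lmx1b-Cre and 119 of 540 in the Pdgfra-Cre library, and the part of this makeup in the difference was not tested. The call did not hold under other cell filters or a gate: the fold of Ihh was 0.619 with 200 genes and 25% mitochondrial UMIs, 0.580 with cells gated singly, and 1.90, in the opposite direction, with 1000 genes and 5%.

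Cells that carried the lineage label, taken as 1600 CPM of tdTomato or more, made up 65 of the 959 cells of the mesenchymal class for Lmx1b-Cre and 476 of the 540 for Pdgfra-Cre. In the Lmx1b-Cre library 0 of 7 members were higher in labelled cells and 1 was lower, against 10.4% of all genes called. That was Ihh, at 9 UMIs or 5.93 CPM against 12.6 CPM, 2.13-fold lower (1.11 to 4.70), and at 800 CPM of tdTomato its fold was 1.44, with labelled cells higher. In the Pdgfra-Cre library 0 were higher and 3 lower, against 13.2%. Ihh was at 2.66 against 21.2 CPM, 7.98-fold lower (4.92 to 12.9), Ptch1 at 62.5 against 195 CPM, 3.13-fold lower (2.75 to 3.55), and Hhip at 3.59 against 9.17 CPM, 2.55-fold lower (1.36 to 4.56). Unlabelled cells of that library were thus the ones rich in the 3 genes that marked osteoblast-like clusters above, and Pth1r, also high in those clusters, had 588 CPM with the label and 1266 CPM without it. The part of the cluster makeup was not tested. The Ptch1 fold was 0.748 at 800 CPM and 0.572 at 3200 CPM of tdTomato, and neither is past the fold required. The Ihh fold in that library ranged from 0.0400 to 0.379 over the alternatives, at least 2-fold lower in each.

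Target genes were also compared within the 892 and 491 mesenchymal cells that could be thinned to 5000 UMIs, so that depth was equal. Cells with a Gli1 UMI had Ptch1 at 136 CPM and those without at 108 CPM in the Lmx1b-Cre library, 1.26-fold (0.988 to 1.60), and at 117 against 64.6 CPM in the Pdgfra-Cre library, 1.81-fold (1.16 to 2.72). Hhip in cells with and without a Ptch1 UMI was at 8.70 against 1.69 CPM (5.16-fold, 1.73 to 18.5) and 14.4 against 1.58 CPM (9.13-fold, 2.19 to 53.4), from 8 and 3 UMIs in the latter. All mesenchymal clusters were pooled here, and Ptch1 and Hhip were both high in the Dmp1 and Ifitm5 clusters. The part of cluster makeup in these folds was not tested. Gli1, in turn, was 1.5-fold (1.05 to 2.13) and 1.17-fold (0.572 to 2.25) higher in cells with a Ptch1 UMI. All 4 folds between Ptch1 and Gli1 were above 1, and 1 of the 2 intervals in each library held 1. The 2 folds of a library come from the same cells, split by either gene, so they do not count as separate results.

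The rest of the pathway was followed through a list of 32 genes for ligand release, co-receptors, signal transduction, the cilium, targets and partners. In mesenchymal against other cells 11 of 32 measured were higher and 5 lower in the Lmx1b-Cre library, and 10 and 6 in the Pdgfra-Cre library, where 29.0% and 27.7% of all genes were called. Higher in both were the co-receptors Boc, Cdon and Gas1, the cilium-base proteins Evc and Evc2, the secreted carrier Scube2, and Foxf2, Osr1 and Grem1. Lower in both were Disp2, Foxf1, Mycn and Ccnd1. Hhat and Stk36 were higher and Scube3 lower in the Lmx1b-Cre library alone by the rule, and Pthlh was higher and Foxc2 and Foxl1 lower in the Pdgfra-Cre library alone, differences that were not themselves compared. The list's median log2 difference was 0.37 and 0.22.

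Of the co-receptors, which present ligand to Ptch1, Gas1 was low where Ihh was high. It was at 6.57 CPM in cartilage-like cells of the Lmx1b-Cre library against 210 CPM in mesenchymal cells, 31.9-fold lower (23.1 to 45.3), and at 15.1 against 281 CPM in the Pdgfra-Cre library, 18.6-fold lower (13.9 to 25.4). In osteoblast-like clusters Gas1 was 17.3-fold (15.1 to 19.9) and 12.3-fold (10.4 to 14.7) lower than in other mesenchymal clusters, and Cdon 2.29-fold (1.93 to 2.75) and 2.71-fold (2.09 to 3.56) lower. Boc was not called in either comparison, in either library.

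In all, cartilage-like cells had 2 of 29 measured list genes higher and 10 lower in the Lmx1b-Cre library, and 3 of 28 higher and 11 lower in the Pdgfra-Cre library. Osteoblast-like clusters had 1 of 28 higher and 13 lower, and 2 of 28 higher and 12 lower. Of all genes 32.3% and 28.4% were called in the former comparison and 26.6% and 21.1% in the latter. Pth1r, the receptor of the Ihh and Pthlh loop, was the gene higher in all 4: it was 3.02-fold (2.96 to 3.08) and 3.96-fold (3.84 to 4.07) higher in cartilage-like cells, at 2587 and 2625 CPM, and 3.43-fold (3.33 to 3.53) and 3.72-fold (3.58 to 3.87) higher in osteoblast-like clusters. Scube1, a secreted protein of the family that carries ligand, was 3.63-fold (3.35 to 3.93) and 3.53-fold (3.16 to 3.96) higher in cartilage-like cells. Pthlh itself was nearly absent from them, with 0 and 1 UMIs, and from osteoblast-like clusters, with 3 and 0 UMIs. Its highest levels were in the Sfrp4 cluster, at 56.5 CPM, and the A2m cluster, at 48.2 CPM, of the Lmx1b-Cre library. The nail-associated cluster had 29.5 CPM of Pthlh in that library and 45.9 CPM in the Pdgfra-Cre library.

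The nail-associated cluster had the highest co-receptor levels of all mesenchymal clusters. Gas1 was at 991 CPM (933 to 1051) and 827 CPM (789 to 866), 5.65-fold (5.28 to 6.03) and 4.29-fold (4.04 to 4.56) above the other clusters. Cdon was at 107 CPM (88.2 to 127) and 86.3 CPM (74.4 to 99.6), 4.54-fold (3.70 to 5.54) and 3.60-fold (2.99 to 4.33) higher, and Boc at 74.3 CPM (59.2 to 92.1) and 58.8 CPM (49.0 to 69.9), 3.21-fold (2.52 to 4.04) and 2.80-fold (2.25 to 3.46) higher. Foxf2, a forkhead factor, was at 30.4 and 29.9 CPM, 22.9-fold (13.8 to 38.0) and 15.5-fold (9.68 to 25.4) higher. Of the list 9 of 28 were higher and 3 lower in the Lmx1b-Cre library and 7 of 28 higher and 2 lower in the Pdgfra-Cre library, with Bcl2, Osr1 and Pthlh among the higher and Pth1r among the lower in both. Of all genes 18.3% and 19.7% were called in this comparison.

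**Figure D5:**
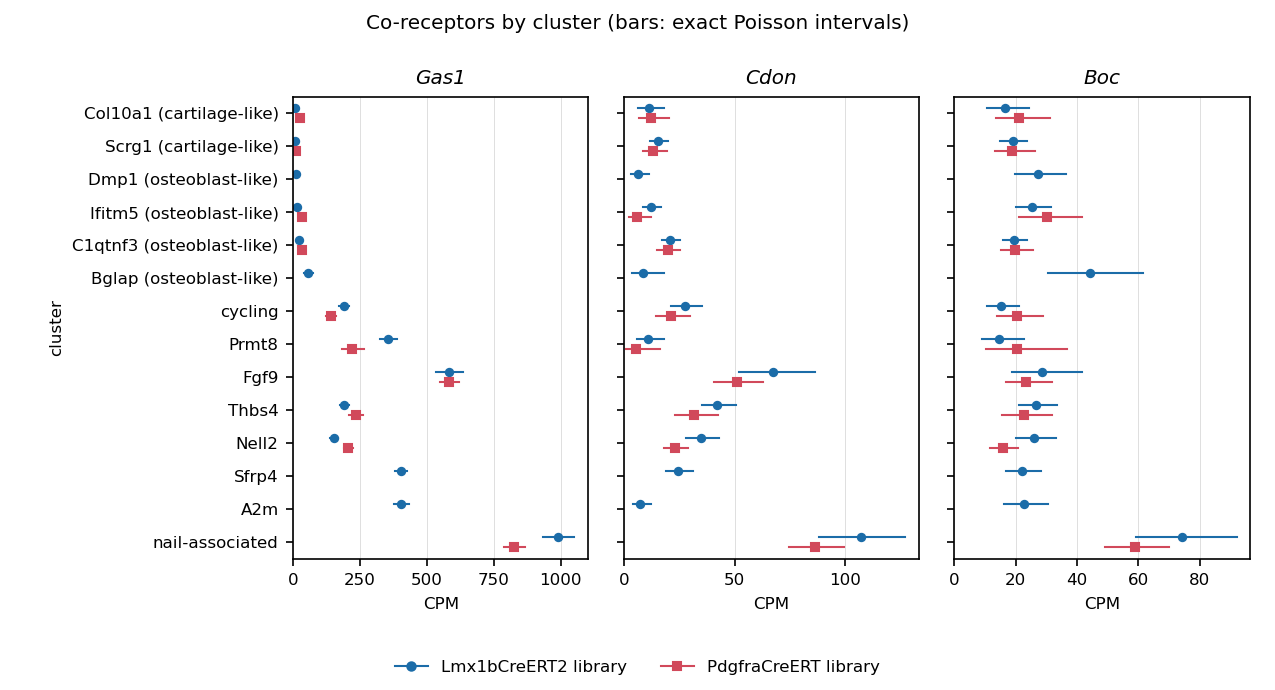
Levels of the co-receptors Gas1, Cdon and Boc (x axes, CPM, each panel with its own scale) in mesenchymal and cartilage-like clusters (y axis), with points for each library and bars for exact Poisson 95% intervals. The nail-associated cluster stands to the right for Gas1 (991 and 827 CPM), Cdon (107 and 86.3 CPM) and Boc (74.3 and 58.8 CPM).

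Between the libraries 2 of 30 measured list genes were higher in mesenchymal cells of the Pdgfra-Cre library, Foxf2 and Grem1, and 1 was lower, Foxc2, against 5.18% of all genes called. In labelled cells of the Lmx1b-Cre library 4 of 28 were higher, Cdon, Foxf2, Gas1 and Scube3, and 2 lower, Hhat and Stk36, against 10.4%. In labelled cells of the Pdgfra-Cre library 8 of 28 were higher and 1, Pth1r, lower, against 13.2%. Gas1 was 3.15-fold (2.93 to 3.38) and 6.07-fold (4.92 to 7.58) and Cdon 3.00-fold (2.42 to 3.68) and 4.14-fold (2.49 to 7.46) higher in labelled cells of the respective libraries, so that these co-receptors were higher in the labelled cells of both. Both genes also differed widely between clusters, as given above, and the part of cluster makeup in these folds was not tested. The Gas1 fold in the Pdgfra-Cre library was 3.16 with the looser cell filter and 3.37 as a ratio of means over cells.

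Of 13405 genes, those following each member most closely were ranked by Pearson correlation of log2(CPM + 1) over 25 units of class and library. The genes named are a description over groups that share library and depth, picked as the closest of many, and not a test. For Ihh these were Col11a2, Comp, Col9a2, Col2a1 (each 0.94) and Col9a1 (0.92), all genes of cartilage matrix. For Dhh they were led by Nkain4 (0.95) and Pllp (0.90), a myelin protein, with the arterial gene Sema3g at 0.89. Ptch1 was followed by Plod2 (0.92) and P4ha2 (0.91), enzymes that modify collagen, and by Fzd9 (0.91). Smo went with Ptk7 (0.94) and Yap1 (0.92), Gli1 with Gp1bb (0.87) and Gli3 with Epb41l3 (0.91). For Hhip the 2 highest units were the erythroid ones, at 19.5 and 7.26 CPM from 2 UMIs each, so its closest genes over classes are not named. Units of few UMIs also enter the values of the other genes. Over the 20 units of mesenchymal cluster and library the closest were Aldoc (0.93) for Ihh, Cab39 (0.90) for Ptch1, Ski (0.95) for Smo, Lrpprc (0.86) for Gli1, Itga8 (0.90) for Gli3 and Dkk1 (0.85) for Hhip.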

How the data were processed

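Single-cell 3' libraries of digit tips were deposited as UMI count matrices, 1 per library; Cell Ranger 4.0.0 made them, per the file headers, on mm10 with tdTomato added, per the labels. UMI counts were used as deposited by the authors. Kept barcodes had 500 or more genes and a mitochondrial share of 10% or less; the highest Scrublet scores were removed (0.8% per 1000 barcodes). Both libraries were clustered together without hedgehog genes (scanpy 1.11.5, Python 3.11.15; 2000 variable genes, 30 components, 15 neighbours, Leiden 1.0; 28 clusters), and mesenchymal and cartilage-like cells again (20 components, 19 clusters). Depth was a median of 17084 and 9774 UMIs per kept cell, with no replicate. Named genes are the 9 members, the pathway genes a sentence turns on, and the 5 closest genes by correlation. Members and lists were chosen with earlier results of these data known, and the cartilage-like, osteoblast-like and nail comparisons were added after values were seen. Alternatives varied the cell filter, gating, averaging, UMI minimum and tdTomato threshold. Interval and fold code was tested on simulated data. Gene positions follow GRCm38. Protein sequences and the promoters of Shh and Gli1 were not used here.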

Additional observations from a re-analysis of the deposited data

Results flagged for a closer look

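Ihh was also seen in clusters of mixed markers that entered no class. In the Lmx1b-Cre library a cluster of 28 barcodes, led by cartilage matrix genes together with Lgals7 and haemoglobin genes and with a median of 1848 UMIs, had Ihh at 166 CPM (82.9 to 297), from 11 UMIs in 7 barcodes. A cluster led by endothelial genes had under 20 cells in each library. Its Ihh was at 28.6 CPM (15.2 to 48.9), from 13 UMIs in 12 cells of the Lmx1b-Cre library, and at 63.8 CPM (48.7 to 82.1), from 60 UMIs in 11 cells of the Pdgfra-Cre library. Another group of 32 cells in the Pdgfra-Cre library, led by pericyte and smooth muscle genes and with a median of 74954 UMIs, had Ihh at 80.7 CPM (69.8 to 92.9), with a UMI in 12 of 32 cells and up to 54 in a single one. The endothelial class itself had 0.201 and 1.58 CPM of Ihh and pericytes and smooth muscle 0.370 and 0.861 CPM. Ptch1 in these clusters was 227, 103, 78.7 and 106 CPM in the same order. They were picked out because the values lie above the macrophage level in cells that no comparison used; whether they hold more than 1 cell per barcode was not tested.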

How the results depend on the processing

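Beside the cartilage-like and nail counts given above, the member counts between the libraries and by label changed by over 1.5 times. Of 11 member counts, 3 moved with 200 genes and 25% mitochondrial UMIs and 2 without collagen and bone matrix genes in the totals. Not all of these are named here. Between the libraries 0 members were called with 200 genes and 25% mitochondrial UMIs, 0 with 1000 genes and 5%, and 0 with a marker gate on each cell, against 1; the Ihh fold turned to 1.90 with 1000 genes and 5%. In labelled cells of the Lmx1b-Cre library 0 were called with 200 genes and 25% and 0 at 800 CPM of tdTomato, against 1, and the Ihh fold was 1.44 at 800 CPM; in those of the Pdgfra-Cre library 1 was called at 800 CPM, against 3. With cartilage-like cells left out of the others, a setting chosen after seeing the data, the mesenchymal Ihh fold turned to 13.5 and 4.14. Of 66 folds of members and co-receptors, 58 stayed within their counting interval, or within 1.5 times with the same call, under the looser filter and 54 as ratios of means over cells, and 36 of 57 under the stricter filter, where the cartilage-like comparison of the Pdgfra-Cre library could not be made. A fold does not depend on the UMI minimum, so the minimum of 5 UMIs could move none of the 66. The gate on each cell moved 14 of 48 folds, and of 14 folds by label 5 moved and 1 turned at 800 CPM and 6 moved at 3200 CPM. Of the members' CPM levels, 47 of 108 moved with the stricter filter, 6 of 135 with the looser one, 22 of 144 as means over cells and 17 of 144 with the gate. The cause of these changes was not tested. No paired analysis was possible because each line had 1 library. Depth limits Shh, at 1 and 0 UMIs, and Gli2 and Hhip, which were sparse in most clusters.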
